A study of Mus musculus with 2 samples.

Results

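The genes described here carry, restrain or answer R-spondin and WNT signalling in the somatic cells of the mouse foetal gonad. The list was chosen by symbol and role, with earlier results of these data known. It holds the ligands *Rspo1* and *Wnt4*, *Ctnnb1*, which encodes the co-activator beta-catenin, the R-spondin receptor *Lgr5*, the feedback inhibitors *Rnf43*, *Znrf3*, *Axin2* and *Nkd1*, and the target transcription factor genes *Lef1* and *Sp5*. These are 10 of the 42422 genes in the counts table, and all 10 were among the 15125 genes with enough counts to be tested.

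RNA was measured by 3′ RNA-seq with unique molecular identifiers in GFP-negative gonadal cells, sorted by FACS from E12.5 gonads of Swiss females mated with 129svJT2 males that carried an Oct4-eGFP transgene marking germ cells. The genotype was given as wild type, and each replicate was a pool of gonads. XX and XY cells were sampled before culture and after 24 h or 72 h of culture in DMSO, and XY cells also after 24 h or 72 h with BGJ398, an FGF receptor inhibitor (FGFRi), or PD0325901, a MEK1/2 inhibitor (MEKi), both at 500 nM in DMSO. Each of the 10 groups had 4 libraries, named F for XX and M for XY with a number. Gonads were cultured with the mesonephros, which was removed before sorting. The sort removed germ cells but did not select among somatic cells, so each library mixed supporting, interstitial, endothelial and surface cells. In such bulk samples fewer cells of a type and less RNA per cell cannot be told apart.

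The libraries held from 1380707 to 4836550 counts in all (median 2248854). Sertoli cell markers were at 2021 to 2344 CPM (counts scaled to the library size) in sum in XY cells before culture and at 116 to 248 CPM in XX cells, while the pre-granulosa markers were at 192 to 244 CPM and 1406 to 1589.5 CPM. Summed germ cell markers were between 10.4 and 300.4 CPM over the 10 groups. The libraries came in 2 sets. One held both groups before culture, DMSO at 24 h for both sexes and MEKi at 24 h, and the other held FGFRi at 24 h and every 72 h group. Comparisons of 72 h with 24 h, and of FGFRi with DMSO at 24 h, cross the sets, and in these the set cannot be told apart from time or from treatment. One library, MEKi 24 h M2, is named in the counts table but not in the sample description, and was kept.

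In this pathway secreted WNT ligands bind Frizzled receptors and LRP co-receptors, which spares beta-catenin from a cytoplasmic destruction complex so that it enters the nucleus and activates targets together with TCF/LEF factors. RNF43 and ZNRF3 are membrane ubiquitin ligases that remove Frizzled from the cell surface, and R-spondins, bound to LGR receptors, take these ligases away and so raise the response to WNT. In the foetal gonad RSPO1 and WNT4 act on the ovarian side of sex determination, where loss of either partly masculinises the XX gonad, and many targets of the pathway, *Axin2* and *Lef1* among them, are used as readouts of its activity.

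Promoter windows are shown for the target transcription factor genes and for *Axin2*, because TCF/LEF factors bind short words ending in CAAAG and these genes are read as targets. The 250 bases before each annotated start were searched on both strands for 4 such words, in RefSeq sequences of GRCm38.p6. Windows were held for 8 of the 10 genes, not for *Lgr5* or *Znrf3*. Of their 13 windows, 2 held any of the words, one of *Sp5* and one of the *Lef1* windows. Capitals mark the words, which do not overlap each other. The *Sp5* window, chr2:70474673-70474922, holds AACAAAG on the plus strand and ATCAAAG on the minus strand, the latter printed as its reverse complement. The *Lef1* window printed, chr3:131156044-131156293, was picked because it holds a word, TACAAAG. The other *Lef1* windows, which start upstream of it at 131110047, 131110073 and 131112541, hold none and are not printed. The *Axin2* window, chr11:108920099-108920348, holds none and has no capitals. All 3 printed windows are on the plus strand.
Sp5: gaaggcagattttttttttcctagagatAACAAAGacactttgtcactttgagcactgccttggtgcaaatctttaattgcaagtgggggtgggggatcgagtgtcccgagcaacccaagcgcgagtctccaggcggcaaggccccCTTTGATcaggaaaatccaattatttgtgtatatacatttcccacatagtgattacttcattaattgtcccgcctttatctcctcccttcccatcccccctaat
Lef1: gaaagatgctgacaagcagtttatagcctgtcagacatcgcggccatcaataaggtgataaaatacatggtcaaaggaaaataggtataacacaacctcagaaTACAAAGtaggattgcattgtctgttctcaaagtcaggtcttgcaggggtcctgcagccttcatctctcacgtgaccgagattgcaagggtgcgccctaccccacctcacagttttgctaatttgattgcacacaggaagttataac
Axin2: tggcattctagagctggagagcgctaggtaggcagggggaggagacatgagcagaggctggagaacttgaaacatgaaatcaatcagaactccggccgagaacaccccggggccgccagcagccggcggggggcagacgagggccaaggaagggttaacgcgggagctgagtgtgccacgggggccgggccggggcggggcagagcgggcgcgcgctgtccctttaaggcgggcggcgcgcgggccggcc

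Of 32851 promoter windows of this length, 4874 (14.8%) held any of the 4 words searched. The word AACAAAG was in 5.03% of the windows on either strand, the word ATCAAAG in 3.21%, the word TACAAAG in 3.2% and the word TTCAAAG in 4.46%. A match is a run of letters and not a site of binding, and its absence says only that these words are not in this window.

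XX somatic cells had more transcripts of most of these genes than XY cells, and the median gap was widest before culture. Genes were called differentially expressed (DEGs) at a false discovery rate (FDR) below 0.05 and a fold change of at least 1.5, with the FDR taken over all 15125 genes from edgeR's quasi-likelihood test. After a log2 fold change, the first value in brackets is its standard error unless it is given as a 95% interval. Before culture 8 of the 10 genes were DEGs, each higher in XX, where 8.01% of all tested genes were higher in XX and 9.32% lower. After 24 h in DMSO 7 of 10 were higher in XX and none lower, against 9.24% and 10.3% of all genes. After 72 h in DMSO 4 of 10 were higher in XX and none lower, against 9.47% and 10.8%. The median log2 fold change of the 10 genes, XX over XY, was 2.10 before culture, 1.4 at 24 h and 0.61 at 72 h, while the median of all tested genes was -0.01 at each time. *Ctnnb1* and *Znrf3* were DEGs at none of the 3 times. Pre-granulosa markers moved with these genes, with 7 of 7 higher in XX before culture and at 24 h and 6 of 7 at 72 h, and 9 of 9 Sertoli markers were lower in XX at each time. Interstitial progenitor markers were lower in XX too, 4 of 6 before culture and 6 of 6 at 24 h and 72 h, and so were 6, 9 and 1 of 10 endothelial markers, 4, 4 and 3 of 5 tested foetal Leydig markers, and 2, 5 and 2 of 6 erythroid markers. Of 5 tested markers of coelomic epithelium, the gonad's surface layer, 4 were higher in XX before culture. At 24 h 1 of them was higher and 1 lower, and at 72 h 2 were higher and 1 lower. Of the foetal Leydig markers 1 was higher in XX at 72 h. Their sums then overlapped, at 489 to 603 CPM in XX and 419 to 646 CPM in XY. The part of these lists in the results was not tested.

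**Figure D1:**
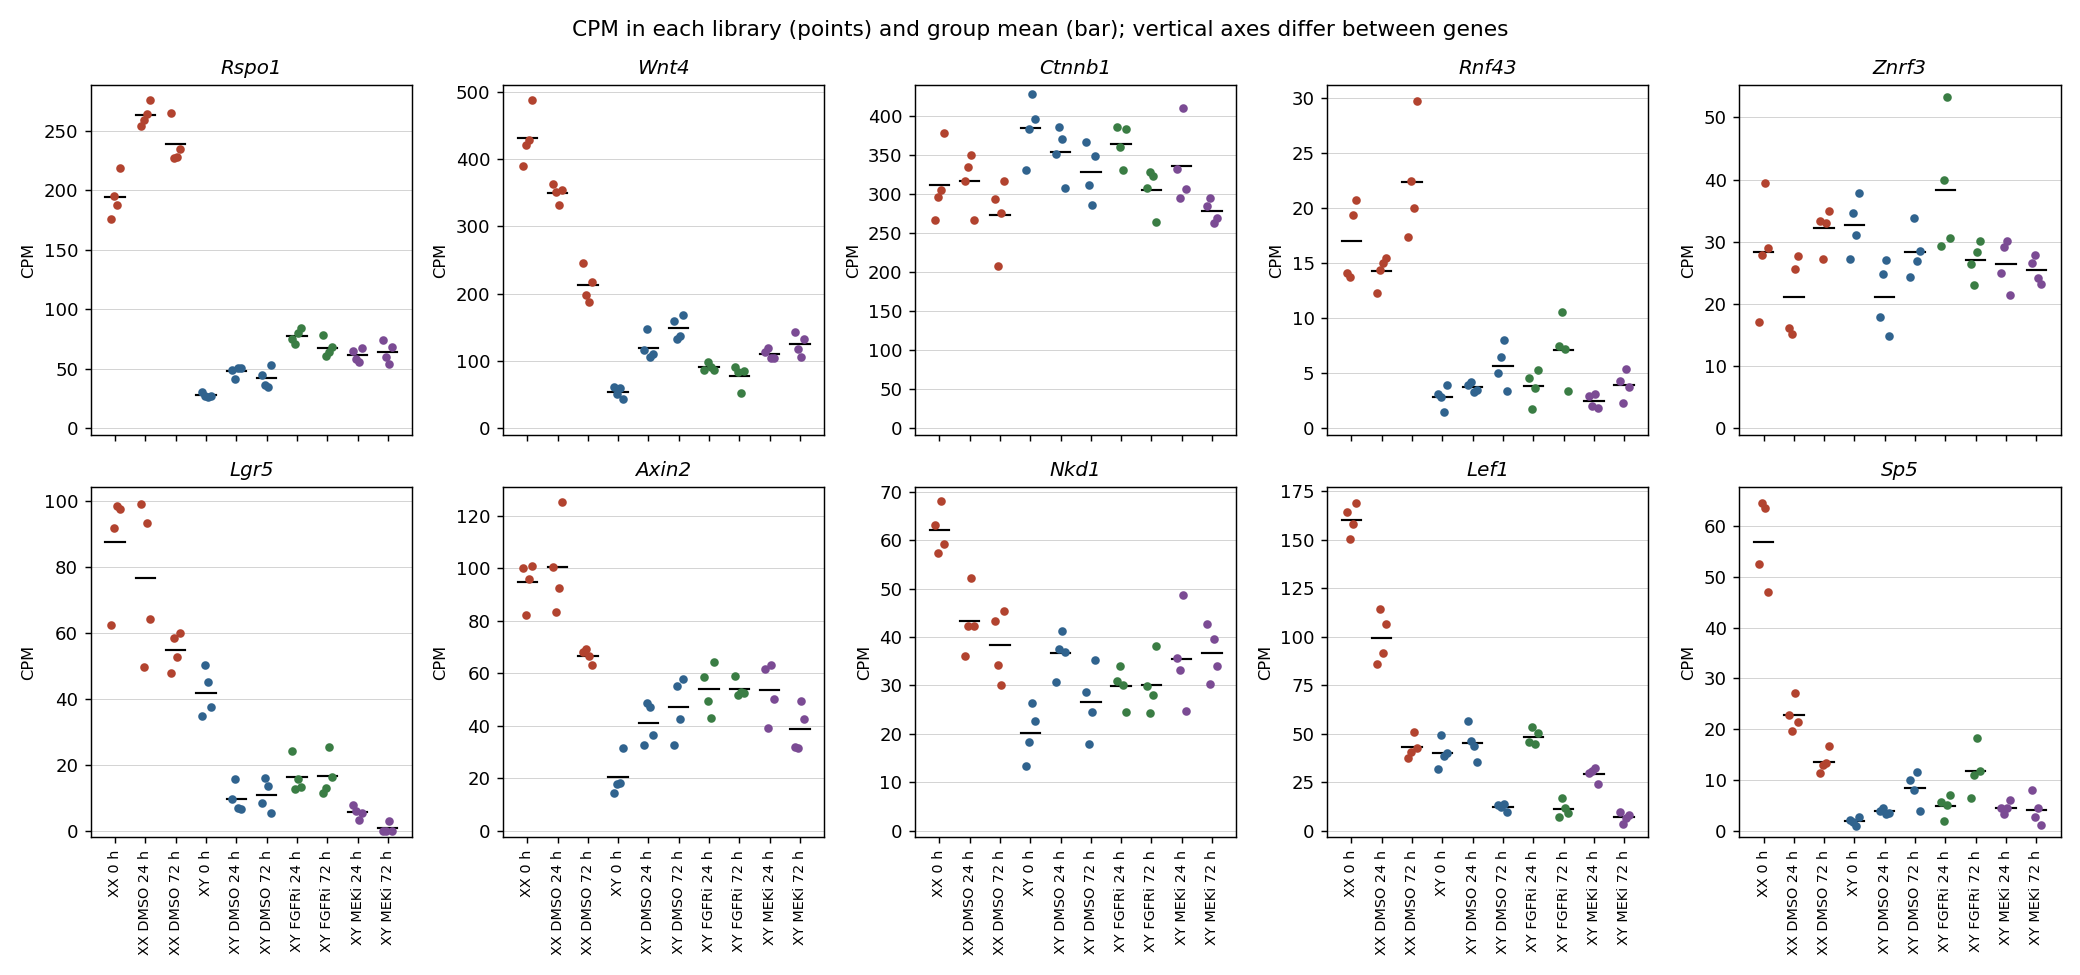
CPM of each of the 10 genes in the 40 libraries, with a linear axis from 0 for each gene and the 10 groups along the horizontal axis. Points are libraries and black lines are group means. The 3 XX groups hold the highest means of *Rspo1*, *Wnt4*, *Lgr5*, *Rnf43*, *Axin2*, *Nkd1* and *Sp5*, and the mean of *Lef1* in XX cells at 72 h, 43.0 CPM, lies among those of the XY groups, whereas *Ctnnb1* and *Znrf3* overlap between neighbouring groups throughout.

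*Rspo1* (ENSMUSG00000028871.7, chromosome 4, 124879876 to 124902892 of GRCm39) encodes the secreted R-spondin that acts early in ovarian development. Before culture its 4 XX libraries had 176, 195, 187 and 219 CPM and its 4 XY libraries 30.8, 27.3, 26.3 and 27.0 CPM. Every XX library was above every XY library. The log2 fold change came to 2.80 (standard error 0.125, FDR 7.91e-25), with 2.46 (0.111) at 24 h and 2.49 (0.117) at 72 h in DMSO. The difference did not change detectably from one time to the next, by -0.34 (95% interval -0.68 to -0.01, FDR 0.263) over the first 24 h and by 0.02 (-0.29 to 0.34, FDR 0.983) from 24 h to 72 h. XX means were 194 ± 18.3 CPM before culture, 263 ± 9.37 at 24 h and 239 ± 18.0 at 72 h (SD, n = 4). The XY means without an inhibitor were 27.8 ± 2.01, 47.8 ± 4.60 and 42.4 ± 8.54 CPM. In XY cells the rise over the first 24 h was a DEG (log2 fold change 0.78, standard error 0.131, FDR 8.08e-06), and in XX cells it was 0.44 (0.103, FDR 0.00205), under 1.5-fold. In the order of the 10 group means, 5 of the 9 neighbouring pairs had overlapping libraries. The XX groups filled the 3 highest places, the 4 inhibitor groups came next, each overlapping its neighbour among them, and XY cells before culture were lowest.

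*Wnt4* (ENSMUSG00000036856.4, chromosome 4, 137004373 to 137027037) encodes a WNT ligand of the early ovary. Unlike *Rspo1*, its sex difference narrowed with time. Before culture the XX libraries had 389.5, 420.1, 428 and 488 CPM and the XY libraries 60.5, 51.2, 59.8 and 43.9 CPM, a log2 fold change of 3.0 (standard error 0.132, FDR 5.86e-25). At 24 h in DMSO the values were 362, 351, 331 and 354 CPM in XX and 116, 148, 106 and 109.7 CPM in XY, a log2 fold change of 1.54 (0.118, FDR 6.4e-16). The libraries of the sexes stayed apart at both times. By 72 h the difference was 0.50 (0.120, FDR 0.000857), under 1.5-fold, with 212 ± 24.9 CPM in XX and 149 ± 16.6 CPM in XY. The sex difference fell by 1.46 (95% interval -1.81 to -1.11, FDR 1.87e-08) over the first 24 h and by 1.04 (-1.38 to -0.70, FDR 5.18e-05) from 24 h to 72 h, both DEGs as interactions. It narrowed from both sides. XY cells rose by 1.16 (0.132, FDR 1.3e-09) over the first 24 h, and XX cells fell by 0.72 (0.116, FDR 8.14e-06) from 24 h to 72 h.

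*Ctnnb1* (ENSMUSG00000006932.17, chromosome 9, 120757422 to 120789579) encodes beta-catenin, whose activity in this pathway is set mainly by the stability of the protein. Its transcripts differed little. Group means lay between 273 ± 46.8 CPM in XX cells at 72 h and 384 ± 40.5 CPM in XY cells before culture, a ratio of 1.41, and the libraries of all 9 neighbouring pairs of groups overlapped. XX libraries before culture had 267, 296, 304 and 378 CPM and XY libraries 331, 382, 428 and 395 CPM. The log2 fold change was -0.30 (95% interval -0.53 to -0.07, FDR 0.0502). No comparison called it with the model of group means, and its 95% intervals against DMSO reached no further than -0.47 to 0.27 for either inhibitor at either time. With the replicate number as a block it was called lower in XX at 72 h (-0.69, FDR 0.0114), against -0.26 (FDR 0.0802) without the block.

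*Lgr5* (ENSMUSG00000020140.15, chromosome 10, 115286216 to 115423685) encodes a receptor for R-spondins, itself a target of the pathway in several tissues. Before culture the XX libraries had 62.4, 91.9, 98.4 and 97.6 CPM and the XY libraries 34.9, 50.1, 44.9 and 37.4 CPM. All XX libraries were higher, with a log2 fold change of 1.06 (standard error 0.242, FDR 0.000525). It then fell in XY cells, to 9.63, 15.7, 6.70 and 6.61 CPM at 24 h, a log2 fold change of -2.09 (0.283, FDR 8.62e-08), whereas in XX cells it was -0.20 (0.227, FDR 0.646). The sex difference therefore widened to 2.96 (0.268, FDR 2.26e-13) at 24 h, and this change of 1.89 (95% interval 1.16 to 2.62, FDR 0.000269) was a DEG. It was the only one of the 10 genes whose sex difference widened at the threshold in that interval. At 72 h the XX mean was 54.8 ± 5.55 CPM and the XY mean 10.7 ± 4.84 CPM, a log2 fold change of 2.37 (0.292, FDR 2.97e-09). The limma test used in the study's methods, voom with quality weights and treat, asks whether a change exceeds 1.5-fold rather than 0, and did not call the difference before culture (1.04, FDR 0.132).

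*Rnf43* (ENSMUSG00000034177.15, chromosome 11, 87553548 to 87626377) and *Znrf3* (ENSMUSG00000041961.14, chromosome 11, 5226324 to 5394939) encode the related membrane ligases that R-spondins oppose. They behaved differently from each other. *Rnf43* before culture had 14.1, 13.7, 19.4 and 20.7 CPM in XX libraries and 3.08, 2.84, 1.43 and 3.91 CPM in XY libraries, the latter from 3 to 9 counts a library. Its log2 fold change came to 2.55 (standard error 0.338, FDR 1.98e-08), with 1.92 (0.292, FDR 4.25e-07) at 24 h and 1.97 (0.291, FDR 2.51e-07) at 72 h. XX libraries were above XY libraries at each time, and the sex difference did not change detectably between times (-0.63, 95% interval -1.56 to 0.30, and 0.05, -0.89 to 0.99). In XX cells *Rnf43* was at 14.3 ± 1.4 CPM at 24 h and 22.4 ± 5.33 CPM at 72 h, a log2 fold change of 0.64 (0.255, FDR 0.0917). It was called in no comparison of times or inhibitors with all libraries, and was called lower with MEKi than with FGFRi at 72 h without FGFRi M6 (-1.08, FDR 0.0306, against -0.84, FDR 0.106). *Znrf3* had 17.1, 27.8, 39.5 and 29.0 CPM in XX libraries before culture and 27.2, 34.7, 31.1 and 37.8 CPM in XY libraries, which overlapped. Its sex difference was -0.25 (95% interval -0.66 to 0.17), -0.07 (-0.48 to 0.34) and 0.19 (-0.22 to 0.60) at the 3 times. *Znrf3* fell in XY cells over the first 24 h (-0.60, 0.201, FDR 0.0250) and rose in XX cells from 24 h to 72 h (0.64, 0.207, FDR 0.0304), where the libraries overlapped. The former call was lost without any one of 4 libraries, XY before culture M3 (-0.57) or M6 (-0.51) or XY DMSO 24 h M2 (-0.52) or M5 (-0.47), with FDR from 0.0584 to 0.0931. The latter was lost without XX DMSO 24 h F4 (0.54) or F5 (0.49) or XX DMSO 72 h F11 (0.64), F7 (0.63) or F8 (0.61), with FDR from 0.0561 to 0.166.

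*Axin2* (ENSMUSG00000000142.15, chromosome 11, 108811169 to 108841609) encodes a scaffold of the destruction complex and *Nkd1* (ENSMUSG00000031661.12, chromosome 8, 89247890 to 89324577) a Dishevelled-binding inhibitor, both induced by the signal that they dampen. *Axin2* before culture had 99.9, 82.2, 96.1 and 101 CPM in XX libraries and 14.4, 17.6, 18.2 and 31.3 CPM in XY libraries. Its log2 fold change came to 2.20 (standard error 0.191, FDR 7.18e-14) before culture, 1.26 (0.163, FDR 8.59e-09) at 24 h and 0.52 (0.174, FDR 0.0192) at 72 h, the last under 1.5-fold. All XX libraries were above all XY libraries at each of these times. *Nkd1* before culture had 63.2, 57.4, 68.2 and 59.2 CPM in XX libraries and 13.3, 18.2, 26.3 and 22.6 CPM in XY libraries, a log2 fold change of 1.60 (0.194, FDR 1.79e-09). At 24 h the sexes overlapped for *Nkd1*, with 43.2 ± 6.67 CPM in XX and 36.6 ± 4.37 CPM in XY, a log2 fold change of 0.22 (0.172, FDR 0.378). Over the first 24 h the sex difference fell by 0.93 for *Axin2* (95% interval -1.44 to -0.42, FDR 0.0139) and by 1.38 for *Nkd1* (-1.90 to -0.86, FDR 0.000209). In XY cells both rose over that time, *Axin2* by 1.01 (0.196, FDR 7.96e-05) and *Nkd1* by 0.86 (0.194, FDR 0.000666). In XX cells *Axin2* was at 0.08 (0.159, FDR 0.817) and *Nkd1* at -0.52 (0.172, FDR 0.0375), under 1.5-fold. The *Axin2* interaction was lost without XY before culture M2 (-0.80, FDR 0.0565). At 72 h, *Axin2* was a DEG between the sexes without XY DMSO M4 (0.61) or M6 (0.63), and *Nkd1*, at 0.51 (0.191, FDR 0.0397), without XX DMSO F7 (0.62) or XY DMSO M6 (0.66). From 24 h to 72 h *Axin2* fell in XX cells by 0.59 (0.163, FDR 0.0105), just past 1.5-fold, and fell short of that fold without XX DMSO 24 h F4 or XX DMSO 72 h F7 (both -0.58) or F8 (-0.56), under DESeq2, RLE scaling or no filter, and in a fit of only the libraries compared. Without XX DMSO 24 h F9 it was -0.45 (FDR 0.0873).

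*Lef1* (ENSMUSG00000027985.14, chromosome 3, 130903919 to 131018005) encodes a nuclear partner of beta-catenin. Before culture the XX libraries had 164, 151, 158 and 169 CPM and the XY libraries 31.8, 49.5, 38.7 and 40.0 CPM, a log2 fold change of 2.01 (standard error 0.153, FDR 6.54e-16). The lowest XX library, at 151 CPM, was well above the highest XY library, at 49.5 CPM. *Lef1* then fell at both steps in XX cells, and in XY cells only from 24 h to 72 h, a step that crosses the library sets. XX means fell from 160.5 ± 7.93 CPM to 99.5 ± 13 at 24 h and 43.0 ± 5.57 at 72 h, with log2 fold changes of -0.69 (0.139, FDR 0.000298) and -1.20 (0.151, FDR 3.62e-08). XY means were 40.0 ± 7.28, 45.3 ± 8.62 and 12 ± 1.76 CPM, of which the second step was a DEG (-1.91, 0.185, FDR 3.36e-11). The sex difference was 1.14 (0.145, FDR 5.62e-09) at 24 h and 1.84 (0.191, FDR 2.13e-11) at 72 h. Its change of -0.87 over the first 24 h (95% interval -1.29 to -0.45, FDR 0.00444) was a DEG, and its change of 0.71 after that (0.22 to 1.19, FDR 0.138) was not. XX cells at 72 h and XY cells before culture overlapped for *Lef1*, at 37.6 to 50.7 CPM and 31.8 to 49.5 CPM.

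*Sp5* (ENSMUSG00000075304.2, chromosome 2, 70305267 to 70308073) encodes a zinc finger factor induced by WNT. It had the largest fitted sex difference of the 10 genes before culture and was not a DEG between the sexes at 72 h. Before culture the XX libraries had 52.5, 64.5, 63.5 and 47.1 CPM, and the XY libraries 2.05, 1.71, 0.956 and 2.61 CPM, from 2 to 6 counts each. The log2 fold change came to 4.90 (standard error 0.350, FDR 5.68e-17), with no overlap. At 24 h the XX libraries had 22.8, 19.6, 27.1 and 21.3 CPM and the XY libraries 3.92, 4.47, 3.26 and 3.50 CPM, a log2 fold change of 2.56 (0.294, FDR 3.36e-10). By 72 h XX libraries at 11.3, 13, 13.4 and 16.7 CPM overlapped with XY libraries at 10.00, 7.95, 11.5 and 3.81 CPM. That difference was 0.69 (95% interval 0.09 to 1.29, FDR 0.0774), and it was a DEG without XY DMSO 72 h M5 (0.86, FDR 0.0443). The sex difference fell by 2.34 over the first 24 h (-3.36 to -1.32, FDR 0.00134) and by 1.87 after that (-2.72 to -1.01, FDR 0.00640). As with *Wnt4*, both sexes moved. *Sp5* fell in XX cells by 1.33 over the first 24 h (0.238, FDR 4.55e-05), and in XY cells from 24 h to 72 h it rose by 1.14 (0.334, FDR 0.0170), a call that was lost without XY DMSO 24 h M4 (1.04) or XY DMSO 72 h M2 (1.02) or M5 (0.96).

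**Figure D2:**
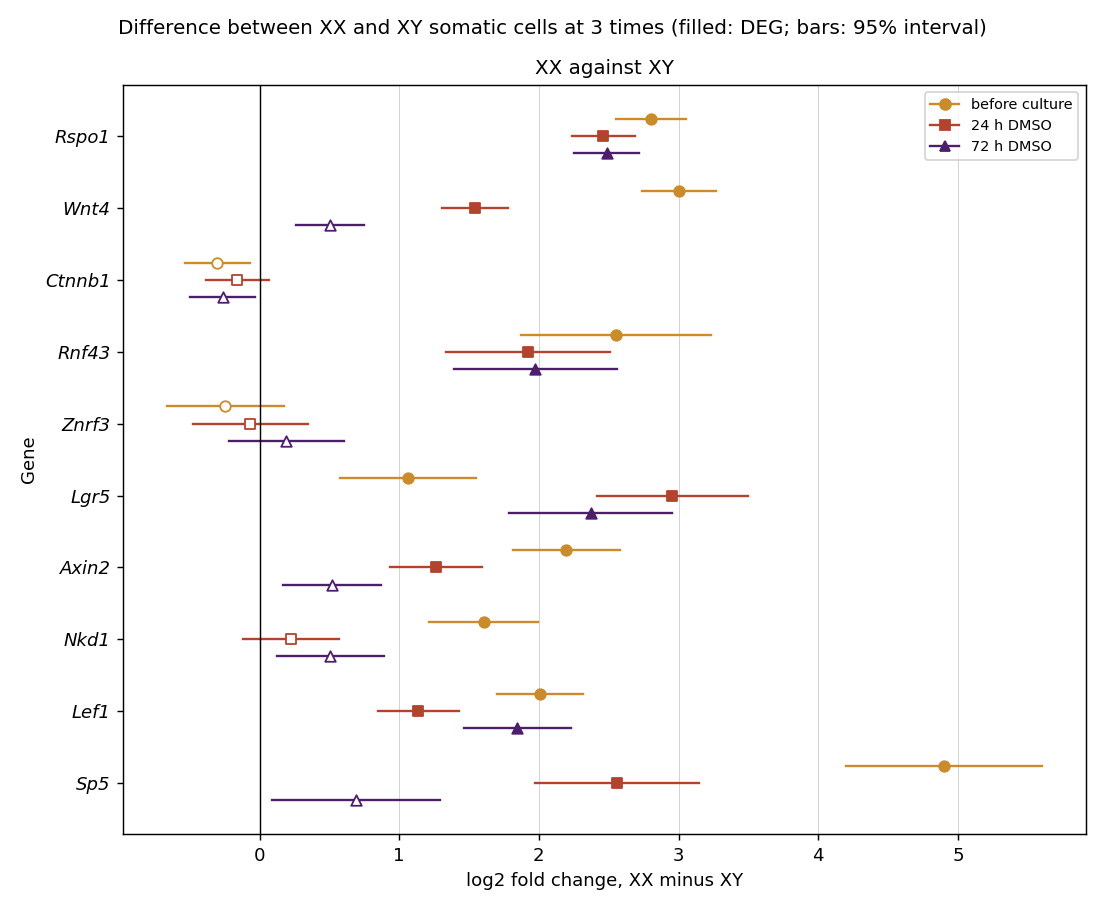
Log2 fold change of XX over XY cells (horizontal axis) for each of the 10 genes (vertical axis) before culture, at 24 h and at 72 h in DMSO, with 95% intervals from 4 libraries a group. Filled symbols are DEGs. *Sp5* moves from 4.90 to 0.69 and *Wnt4* from 3.0 to 0.50, *Rspo1* stays between 2.46 and 2.80, and *Lgr5* is lowest before culture at 1.06.

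Counted over the genes, the first 24 h of culture brought 4 increases and 2 decreases in XY cells, where 14.4% of all tested genes were DEGs. The increases were *Rspo1*, *Wnt4*, *Axin2* and *Nkd1*, and the decreases *Lgr5* and *Znrf3*. In XX cells the same interval brought 2 decreases, *Lef1* and *Sp5*, and no increase, against 7.73% of all genes. From 24 h to 72 h, XY cells had 1 increase (*Sp5*) and 1 decrease (*Lef1*) against 7.27%, and XX cells 1 increase (*Znrf3*) and 3 decreases (*Wnt4*, *Axin2* and *Lef1*) against 8.15%. The change of the sex difference over the first 24 h was a DEG for 6 of 10 genes, 5 towards XY and *Lgr5* towards XX, against 6.2% of all genes. After that it was a DEG for 2 of 10, *Wnt4* and *Sp5*, against 2.04%. With voom and treat the interaction counts were 2 and 0, against 119 and 22 of all genes, and the genes kept in the first were *Wnt4* and *Lgr5*. Marker lists also moved with time in culture. Over the first 24 h 6 of 6 erythroid markers fell in both sexes, from a summed 9894 to 12560 CPM to 2117 to 5558 CPM in XY cells and from 6023 to 10995 CPM to 769.8 to 1797 CPM in XX cells. In XY cells 7 of 9 Sertoli markers fell in that interval, 3 of 6 interstitial progenitor markers rose and 5 of 5 tested coelomic epithelium markers rose (6 were listed). In XX cells 4 of 6 macrophage markers fell, and 3 of the 5 coelomic epithelium markers and 3 of 5 tested germ cell markers rose. From 24 h to 72 h 8 of 10 endothelial markers fell in XY cells and 4 of 10 in XX cells, 4 of 6 erythroid markers fell in each sex and 4 of 6 macrophage markers rose in each. Their part in the changes was not tested.

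In XY cells *Lgr5*, *Lef1* and *Sp5* fell with MEKi, *Lef1* at both times and the others at 72 h. At 24 h 1 of the 10 genes was a DEG against DMSO, *Lef1*, where 3.27% of all tested genes were. At 72 h 3 of 10 fell and none rose at 1.5-fold, against 6.47% of all genes. A fit of only the libraries compared called 1 of the 10 at 72 h, and voom and treat *Lgr5* alone. Of all genes these called 976 and 75. At 24 h voom and treat called 0 of the 10, and 88 of all genes. FGFRi and MEKi were set against the same DMSO libraries, and their values are given side by side.

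*Lgr5* with MEKi at 72 h had no count in 3 of 4 libraries, M2, M3 and M5, and 9 counts in M4, which is 2.83 CPM. A count of 0 allows up to 3 counts, or 1.42, 1.15 and 1.62 CPM in those libraries, counting error only. The DMSO libraries at 72 h had 25, 32, 27 and 11 counts, or 8.33, 15.9, 13.5 and 5.24 CPM. Every MEKi library was below every DMSO library, with a fitted log2 fold change of -3.46 (standard error 0.562, FDR 1.87e-05). Without MEKi M4 the fitted value was -7.67, which has no counts behind its lower group. At 24 h the MEKi libraries had 7.82, 5.98, 3.08 and 5.47 CPM and the DMSO libraries 9.63, 15.7, 6.70 and 6.61 CPM, which overlapped (-0.85, 95% interval -1.63 to -0.08, FDR 0.252). With FGFRi the values pointed the other way without passing the test, at 16.3 ± 5.43 CPM at 24 h (0.75, FDR 0.187) and 16.6 ± 6.24 CPM at 72 h (0.69, FDR 0.315). Set against FGFRi at 72 h, MEKi was lower by a fitted log2 fold change of -4.14 (0.512, FDR 4.75e-08), a comparison that uses no DMSO library. Without MEKi M4 this too rests on no count in the MEKi group and was -8.35.

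*Lef1* fell with MEKi at both times. At 24 h the MEKi libraries had 29.8, 30.6, 32.2 and 24.2 CPM and the DMSO libraries 56.3, 46.0, 43.7 and 35.4 CPM. The groups did not overlap, and MEKi over DMSO gave a log2 fold change of -0.63 (standard error 0.163, FDR 0.0123). It passed without MEKi M2, the library missing from the sample description, and was lost without DMSO M2 (-0.52, FDR 0.0696) or MEKi M6 (-0.55, FDR 0.0835) and with the replicate block (-0.55, FDR 0.101). At 72 h the values were 9.48, 3.44, 6.28 and 8.09 CPM with MEKi and 13, 11.9, 13.5 and 9.52 CPM with DMSO, again without overlap, though the nearest libraries were 9.48 and 9.52. The log2 fold change was -0.86 (0.251, FDR 0.0185), lost without DMSO M2 (-0.81, FDR 0.0694), MEKi M3 (-0.63, FDR 0.115) or MEKi M4 (-0.84, FDR 0.0563). FGFRi left *Lef1* at 0.09 (95% interval -0.22 to 0.40) at 24 h and -0.09 (-0.55 to 0.37) at 72 h. Against FGFRi at 72 h, MEKi was lower by -0.77 (0.252, FDR 0.0402) with overlapping libraries, and this call was lost without FGFRi M4 (-0.52) or M5 (-0.75) or MEKi M3 (-0.55) or M4 (-0.75).

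*Sp5* at 72 h had 8.06, 2.68, 4.40 and 1.08 CPM with MEKi and 10.00, 7.95, 11.5 and 3.81 CPM with DMSO. The ranges overlapped, and the log2 fold change of -1.03 (standard error 0.352, FDR 0.0479) was lost without 6 of the 8 libraries, DMSO M2 (-0.91), M4 (-1.05) or M5 (-0.86) or MEKi M3 (-0.86), M4 (-1.08) or M5 (-0.77), at FDR up to 0.162. With FGFRi at 72 h *Sp5* had 6.33, 10.9, 18.3 and 11.7 CPM, a log2 fold change of 0.53 over DMSO (0.30, FDR 0.429). MEKi against FGFRi was -1.56 (0.333, FDR 0.000889), and it was called in each of the 8 fits that left out a library. The libraries overlapped, with MEKi M2 at 8.06 CPM and FGFRi M2 at 6.33 CPM, and the MEKi libraries held 2 to 17 counts.

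The ligands responded differently. *Rspo1* with FGFRi at 24 h had 75.3, 70.9, 79.7 and 83.9 CPM, against 48.8, 41.0, 50.8 and 50.5 CPM with DMSO, a log2 fold change of 0.70 (standard error 0.116, FDR 5.33e-05) in a comparison that crosses the library sets. MEKi libraries at 24 h lay between, at 65.0, 58.5, 55.8 and 67.5 CPM, above every DMSO library but not past the test (0.37, 0.118, FDR 0.0608). At 72 h *Rspo1* was at 0.66 (0.123, FDR 0.000962) with FGFRi and at 0.58 (0.123, FDR 0.00102) with MEKi, the latter just under 1.5-fold. MEKi was past that fold without DMSO M2 (0.62) or M6 (0.70), or MEKi M3 (0.61) or M4 (0.65). The difference between the inhibitors was -0.08 (95% interval -0.31 to 0.16). Every library of both inhibitor groups was below every XX library at 72 h, with 64.2 ± 8.73 CPM with MEKi and 67.7 ± 7.67 CPM with FGFRi, against 239 ± 18.0 CPM in XX cells. *Wnt4* at 72 h had 91.5, 83.5, 52.3 and 85.1 CPM with FGFRi and 159, 133, 137 and 168 CPM with DMSO. Its fall of 0.95 (0.127, FDR 7.44e-06) was opposite in direction to *Rspo1* in the same libraries. At 24 h *Wnt4* was at -0.41 with FGFRi (0.125, FDR 0.0407), under 1.5-fold. MEKi left it at -0.13 (95% interval -0.38 to 0.12) at 24 h and -0.26 (-0.51 to -0.02, FDR 0.156) at 72 h. MEKi was above FGFRi for *Wnt4* at 72 h, by 0.68 (0.128, FDR 0.000138), which dropped below 1.5-fold without FGFRi M5 (0.52).

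With FGFRi 2 of the 10 genes rose at 24 h, *Rspo1* and *Znrf3*, and none fell, against 3.27% of all tested genes. *Znrf3* libraries had 29.3, 39.9, 53.3 and 30.6 CPM with FGFRi and 17.8, 24.9, 27.0 and 14.8 CPM with DMSO. The groups did not overlap, and the log2 fold change came to 0.82 (standard error 0.198, FDR 0.00639), lost without FGFRi M4 (0.61, FDR 0.100). This comparison crosses the library sets. At 72 h, within 1 set, *Znrf3* was at -0.06 (95% interval -0.48 to 0.35). There 1 gene rose (*Rspo1*) and 1 fell (*Wnt4*), against 1.8% of all genes. None of the 4 FGFRi calls passed voom and treat, which at 72 h with MEKi called *Lgr5* alone. Of all genes that test called 16 with FGFRi at 24 h, 0 with FGFRi at 72 h and 75 with MEKi at 72 h. MEKi against FGFRi at 72 h gave 1 gene higher (*Wnt4*) and 3 lower (*Lgr5*, *Lef1* and *Sp5*), against 6.43% of all genes.

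The MEKi effect changed from 24 h to 72 h at the threshold for none of the 10 genes, against 1.41% of all tested genes. At an unadjusted p under 0.05 there were 3, *Lgr5*, *Axin2* and *Sp5*, all lower at 72 h, and DESeq2 called 1 and voom and treat none. Of all genes DESeq2 called 237 and voom and treat 1, against 213 in the main fit. For *Lgr5* the change was -2.61 (95% interval -4.09 to -1.12, FDR 0.0553). It was called by DESeq2, without the filter on low counts, and without DMSO 24 h M3 (-2.97), DMSO 72 h M6 (-2.82), MEKi 24 h M4 (-2.87) or MEKi 72 h M4 (-6.82).

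Cell type markers moved with the inhibitors as well. With MEKi all 10 endothelial markers fell at 24 h, from a summed 249.6 to 386 CPM to 61.5 to 83.7 CPM, and 8 of 10 at 72 h, from 89.5 to 168 CPM to 47.5 to 67.3 CPM. With FGFRi 1 of 10 fell at 24 h and none at 72 h. At 72 h 4 of 9 Sertoli markers fell with MEKi, and 4 of the 5 tested coelomic epithelium markers rose, from 269 to 359 CPM to 505 to 539 CPM. Foetal Leydig markers rose as well, 3 of 5 tested, from 419 to 646 CPM to 832 to 1311 CPM. With FGFRi at 24 h 1 of 7 pre-granulosa markers rose, with sums of 271 to 282 CPM against 167 to 239 CPM in DMSO. At that time 2 of 7 rose with MEKi, with sums of 232 to 256 CPM. At 72 h 1 of 7 rose with MEKi, at 266 to 291 CPM against 173 to 248 CPM in DMSO, and 0 with FGFRi. Of 5 tested germ cell markers, 2 rose with MEKi at 24 h, with sums of 162 to 300 CPM against 74.3 to 142 CPM in DMSO. With FGFRi at 24 h 2 of these 5 fell, to 22.3 to 46.9 CPM. In MEKi against FGFRi at 72 h 8 of 9 Sertoli markers and 5 of 10 endothelial markers were lower. With FGFRi at 72 h 6 of 6 macrophage markers fell, and with MEKi 5 of 6. *Lef1* was lower with MEKi at the same times as the endothelial markers, and the part of all these lists in the results with the inhibitors was not tested.

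**Figure D3:**
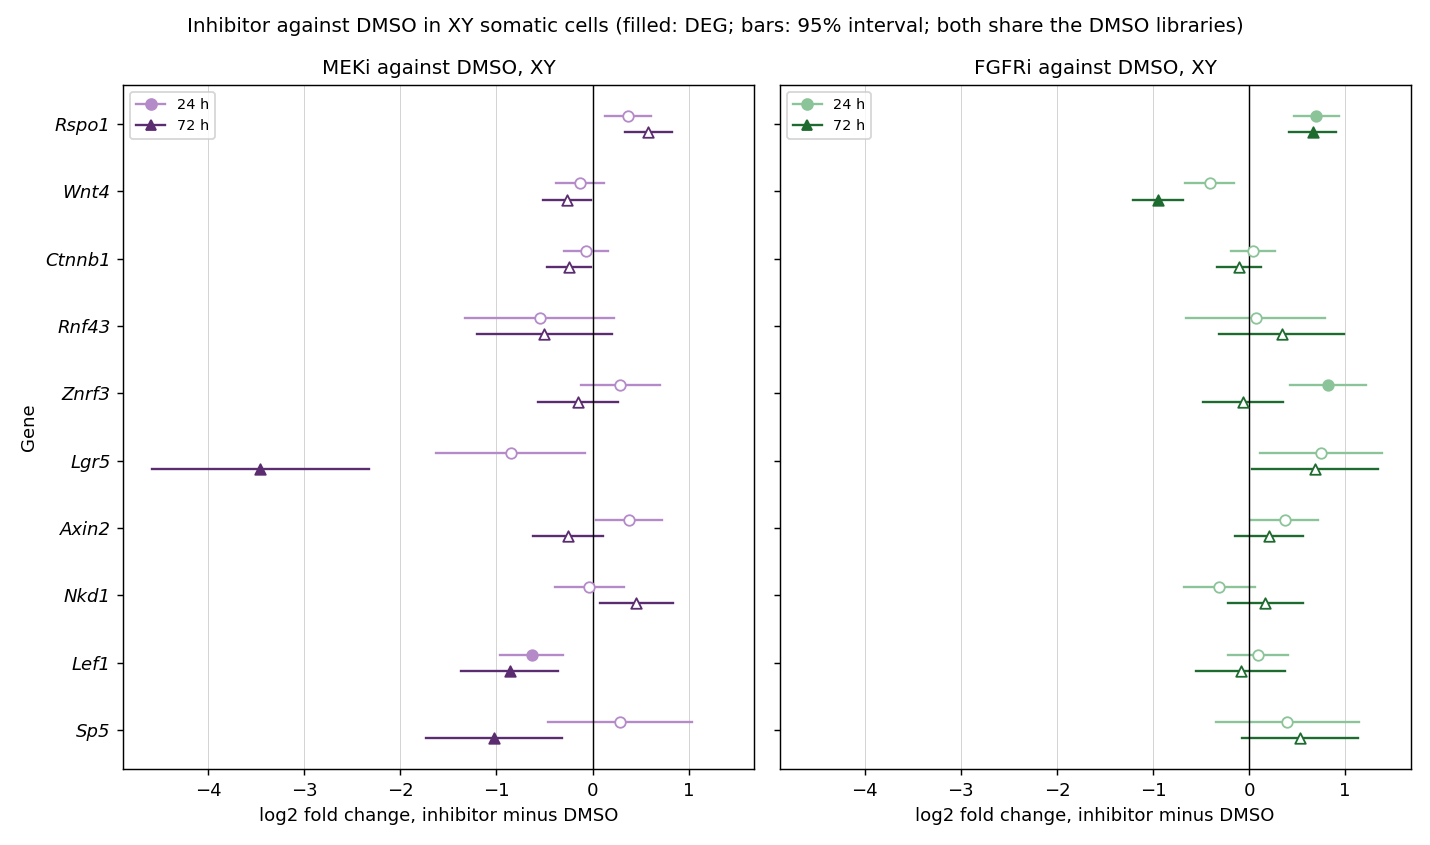
Log2 fold change over DMSO in XY cells (horizontal axis) for each of the 10 genes (vertical axis), with MEKi and FGFRi at 24 h and 72 h and 95% intervals from 4 libraries a group, the DMSO libraries being shared. Filled symbols are DEGs. *Lgr5* with MEKi at 72 h stands farthest from 0 at -3.46, while *Rspo1* is between 0.37 and 0.70 in all 4 comparisons.

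Of 89 further ligands, receptors, antagonists, relay proteins, nuclear partners and targets, 63 were tested. In XX against XY cells 7 were higher and 9 lower before culture, 7 and 17 at 24 h, and 5 and 13 at 72 h. Of all genes tested, 8.01% were higher and 9.32% lower before culture, 9.24% and 10.3% at 24 h, and 9.47% and 10.8% at 72 h. The pathway genes had median log2 fold changes of -0.09, -0.19 and -0.23. Of 11 secreted and membrane antagonists tested, 1 was higher in XX and 4 lower before culture, 1 and 7 at 24 h, and 0 and 4 at 72 h, with median log2 fold changes of -0.74, -1.33 and -0.72, while 9.32%, 10.3% and 10.8% of all genes were lower in XX. *Sostdc1*, a secreted antagonist, had 2.56, 1.77, 0.775 and 0.754 CPM in XX libraries before culture and 28.7, 31.3, 34.4 and 34.4 CPM in XY libraries. Its log2 fold change came to -4.36 (standard error 0.307, FDR 3.28e-17), with -5.93 at 24 h and -3.37 at 72 h. *Dkk1*, which blocks LRP co-receptors, was at 1.90 ± 1.46 CPM in XX and 24.7 ± 3.05 CPM in XY cells (-3.53, 0.384, FDR 9.27e-11), and *Sfrp4*, a Frizzled-related decoy, at 1.06 ± 0.844 and 6.81 ± 4.03 CPM (-2.47, 0.552, FDR 0.000421). These antagonists were thus higher in XY cells, opposite in direction to the 8 DEGs among the 10 genes.

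Among the other ligands and receptors, *Wnt6* was higher in XX, by 0.60 (standard error 0.136, FDR 0.000500) before culture, 1.67 (0.139, FDR 1.17e-14) at 24 h and 1.36 (0.146, FDR 5.94e-11) at 72 h. In contrast, *Wnt5a*, a ligand best known for signalling without beta-catenin, was lower in XX at each time, by -0.79, -1.46 and -1.57, and so was *Ror2*, a receptor for it, by -1.30, -1.27 and -1.30. *Rspo3*, another R-spondin, was at 24.9 ± 10.6 CPM in XX and 73.0 ± 15.2 CPM in XY cells at 72 h, a difference of -1.53 (0.220, FDR 1.45e-07), opposite in direction to *Rspo1*. Both sexes gained *Rspo3* over the first 24 h, by 1.95 in XY (0.287, FDR 5.23e-07) and 0.99 in XX (0.311, FDR 0.0270). *Tnfrsf19*, often used as a WNT target, had 137, 157, 182 and 195 CPM in XX libraries before culture and 18.5, 15.4, 24.9 and 19.1 CPM in XY libraries. Its sex difference was 3.09 (0.166, FDR 1.39e-21) before culture, 3.02 at 24 h and 3.34 at 72 h, and thus did not narrow like that of *Sp5*. Of 5 tested genes on that list of targets, 1 was higher in XX and 1 lower at each time. The shares of all genes are given above. The list medians were -0.11, -0.07 and -0.03. The lower gene was *Prickle1*, at -1.64 before culture, -1.73 at 24 h and -1.21 at 72 h.

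With MEKi, 3 of the 63 genes rose and 2 fell at 24 h, and 3 rose and 3 fell at 72 h. With FGFRi 1 rose and 3 fell at each time. Over all genes the shares called were 3.27% and 6.47% with MEKi and 3.27% and 1.8% with FGFRi, and the counts are given as a description only. At 24 h the receptor gene *Lgr4* was at 241 CPM with MEKi and 139.6 CPM with DMSO (0.77, 0.187, FDR 0.00643). The others that rose then were *Fzd9* (1.62, 0.377, FDR 0.00405) and the antagonist *Sfrp4* (0.97, 0.271, FDR 0.0252). Another antagonist, *Dkk2*, fell (-2.36, 0.412, FDR 6.66e-05), and so did *Ccnd1*. The 3 that rose with MEKi at 72 h were all antagonists. *Sfrp4* had 71.1, 76.4, 91.4 and 56.6 CPM with MEKi and 23.0, 22.9, 23.9 and 24.3 CPM with DMSO (log2 fold change 1.66, standard error 0.242, FDR 2.11e-06), and *Dkk1* and *Sostdc1* rose by 1.00 (0.30, FDR 0.0230) and 0.59 (0.158, FDR 0.00948). *Sfrp4* rose with FGFRi too, by 1.35 (0.266, FDR 0.000702) at 24 h and 0.88 (0.249, FDR 0.0405) at 72 h. *Dkk1* fell with FGFRi at 24 h, by 2.40 (0.308, FDR 4.34e-07). Both of these FGFRi values at 24 h cross the library sets. At 72 h, within a set, *Dkk1* was not a DEG with FGFRi, at 4.25 ± 1.81 CPM against 9.43 ± 3.34 CPM with DMSO. *Wnt6* at 72 h had 41.7, 50.1, 51.2 and 38.3 CPM with MEKi and 86.6, 122, 130.2 and 75.2 CPM with DMSO, without overlap, a log2 fold change of -1.17 (0.161, FDR 6.36e-07). *Ccnd1*, which encodes cyclin D1 and is also driven by MEK and ERK, fell in all 4 comparisons. With MEKi it fell by 0.87 (0.246, FDR 0.0267) at 24 h and 1.49 (0.266, FDR 0.000104) at 72 h. With FGFRi it fell by 1.33 (0.256, FDR 0.000542), across the library sets, and by 1.45 (0.266, FDR 0.000786). The DMSO libraries, shared by both inhibitors, spread widely for *Ccnd1*, at 122.5 ± 66.3 CPM at 24 h and 107 ± 46.4 CPM at 72 h.

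**Figure D4:**
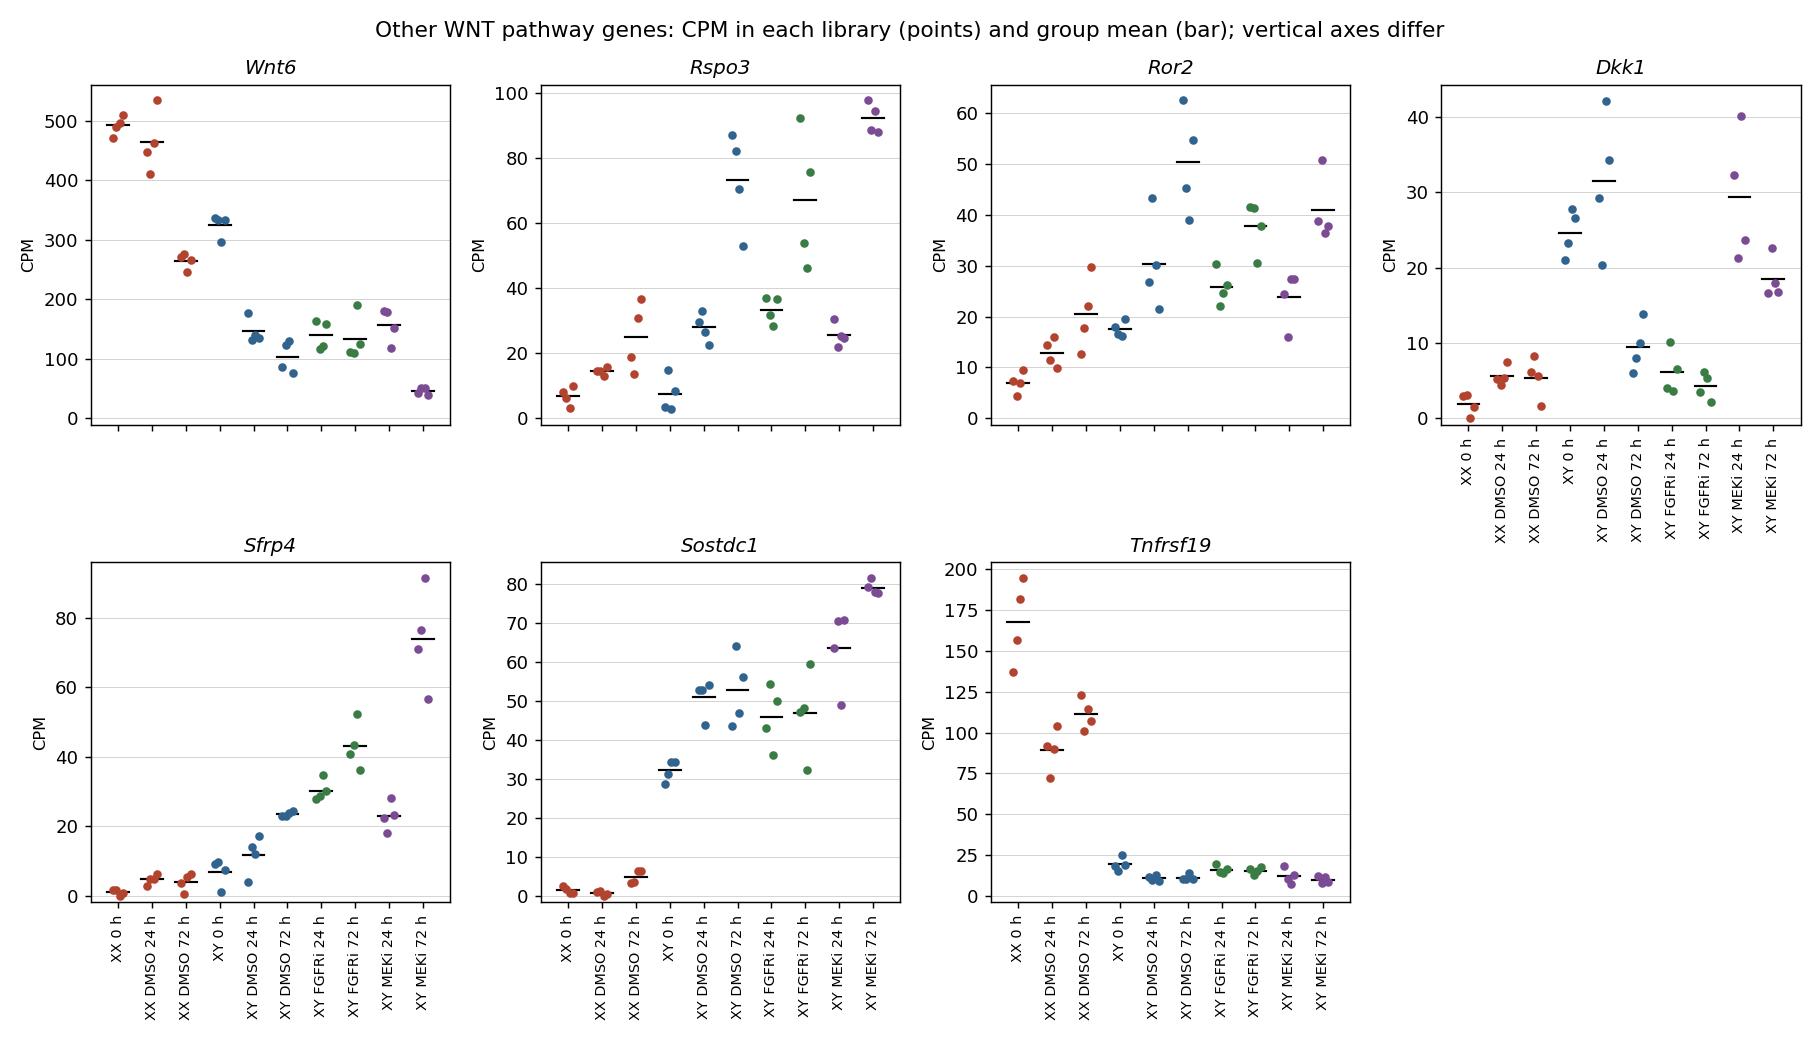
CPM in the 40 libraries of the 7 further pathway genes that met the rule for naming in the most comparisons, *Wnt6*, *Rspo3*, *Ror2*, *Dkk1*, *Sfrp4*, *Sostdc1* and *Tnfrsf19*, with a linear axis from 0 for each gene and groups along the horizontal axis. Points are libraries and black lines are group means. *Wnt6* and *Tnfrsf19* stand higher in XX cells and *Sostdc1* in XY cells at each time.

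Across all 40 libraries, which share groups and library sets, log2 CPM of *Rspo1* and *Wnt4* correlated at Pearson r = 0.83, *Rspo1* and *Rnf43* at 0.82, and *Rspo1* and *Axin2* at 0.82. Once each group's mean was taken away, these 3 values were 0.39, -0.19 and -0.08. Among 12316 autosomal genes with a mean of at least 5 CPM, the most alike over the 40 libraries was *Lrrn1* for *Rspo1* (r = 0.95), *Fst* for *Wnt4* (0.89) and *Wnt6* for *Lgr5* (0.92). *D630039A03Rik* was nearest to *Rnf43* (0.89), *B4galt5* to *Axin2* (0.86), *Dab1* to *Nkd1* (0.82), *Cpa1* to *Lef1* (0.88) and *Ifnar1* to *Sp5* (0.88). *Ctnnb1* was most like *Rcc2* (0.84). *Znrf3* had no gene above 0.61 (*Tug1*).

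Several of these genes overlap others on the same strand, as annotated in GENCODE M39, so that reads there cannot be assigned with certainty. They are *Ctnnb1* (with *Gm68063* and *Mir7090*), *Rnf43* (*1110028F11Rik*), *Znrf3* (*Gm72655*), *Nkd1* (*Gm45496*) and *Lef1* (*Gm42449*).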

How the data were processed

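Counts were deposited by the authors as whole UMI counts per gene and library, made with scPipe and Rsubread on GENCODE GRCm39, with the strand in use as described for the germ cell libraries, and without normalisation. The submitters' processing notes name limma and edgeR without versions. Here 40391 of 42422 identifiers were matched to GENCODE M39 for names and positions. Genes were kept with filterByExpr, which left 15125, TMM scaled the library sizes, and edgeR 4.0.16 in R 4.3.3 fitted 1 mean for each of the 10 groups to all 40 libraries. The quasi-likelihood test with Benjamini-Hochberg adjustment over all genes gave each FDR, and log2 CPM used a prior count of 2. DESeq2 1.42.0, voom and treat from limma 3.58.1, RLE scaling, no filter, a fit of only the libraries compared, a block for the replicate number, and refits without each library were the alternatives. Intervals are at 95% and floors cover counting error only.

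Libraries within groups were not copies, with a chi-square per degree of freedom of 1.92 to 7.69 over 60 pairs. Whether the libraries of a group came from separate cultures is not stated beyond the pooling, so p-values measure the spread between these libraries. The members, the marker and pathway lists and the tests were chosen with earlier results of these data known. All 10 members were described. A further pathway gene could be named where it was a DEG with a mean of at least 5 CPM, at most 3 a list and comparison. Not every gene that met this rule is named. *Wnt9a*, *Nkd2*, *Lgr6*, *Dkk3*, *Tle4* and *Myc* are among those left out. Scripts were tested on simulated data. Germ cell libraries were not used here.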

Additional observations from a re-analysis of the deposited data

Results flagged for a closer look

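Of the 100 sets of 4 libraries 2 held a library far from the other 3, where chance alone gives about 1 in 20. *Lgr5* with MEKi at 72 h was at 2.83 CPM in M4 and at 0 in the other 3 libraries. *Axin2* with FGFRi at 72 h was at 58.7 CPM in M2 and between 51.9 and 52.6 CPM in the others.

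The sex difference itself changed for several genes, by the interaction test. Over the first 24 h it changed by -1.46 for *Wnt4*, -0.93 for *Axin2*, -1.38 for *Nkd1*, -0.87 for *Lef1* and -2.34 for *Sp5*, all towards XY, and by 1.89 for *Lgr5* towards XX, on the log2 scale. From 24 h to 72 h it changed by -1.04 for *Wnt4* and -1.87 for *Sp5*. An effect of the library set that is equal in both sexes cancels in these values.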

How the results depend on the processing

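No call among the 10 genes changed direction under any alternative. The 53 calls of a gene in a comparison gave 806 values under the alternatives, of which 731 kept the call, 75 lost it and 0 were reversed. Of the 97 pairs that were not called, 15 changed sign, none with a value above 0.19 in size. Voom and treat tests against 1.5-fold. At 24 h against before culture it called 2 of the 10 genes in XY cells and 1 in XX cells. At 72 h against 24 h it called 1 in XY cells and 1 in XX cells. Of all genes it called 421, 214, 184 and 148 in these, and the main test called 2178, 1169, 1100 and 1232. Among the 10 genes it called 0 and 1 for MEKi at 24 h and 72 h, and 0 for FGFRi at both. It called 1 for MEKi against FGFRi, and 2 and 0 for the change of the sex difference before and after 24 h. Of all genes it called 88 and 75 for MEKi, 16 and 0 for FGFRi and 90 for MEKi against FGFRi. For the changes of the sex difference it called 119 and 22. The main test called 495, 979, 495, 273, 972, 938 and 309 in the same order. A fit of only the libraries compared called 1 gene for MEKi at 72 h, and DESeq2 and the fit without a filter each called 1 for the change of the MEKi effect. Of all genes the first called 976, against 979 in the main fit, and the others called 237 and 350, against 213.

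Leaving out 1 library at a time gave 8 genes called between the sexes before culture in every refit, 7 at 24 h and 4 to 6 at 72 h. The range was 5 to 6 and 2 to 3 for XY and XX cells at 24 h against before culture, and 1 to 3 and 2 to 4 at 72 h against 24 h. It was 0 to 1 for MEKi at 24 h, 2 to 5 at 72 h, 1 to 2 for FGFRi at 24 h, 2 at 72 h and 2 to 5 for MEKi against FGFRi. For the changes of the sex difference it was 5 to 6 and 2 to 3, and 0 to 1 for the change of the MEKi effect.

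Some groups shared replicate numbers. Deviations of libraries with the same number correlated at between -0.16 and 0.12. In no comparison with 3 or more shared numbers was every correlation above 0.1, and the main test did not pair libraries by number. With so few shared numbers, these values cannot show whether such libraries were prepared together. With the replicate number as a block, 2 genes were called for XX cells at 72 h against 24 h, 0 for MEKi at 24 h and 1 for the change of the sex difference after 24 h. Of all genes 330, 366 and 64 were called there with the block, against 1232, 495 and 309 without it.

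*Sp5* and *Rnf43* in XY cells and *Lgr5* with MEKi rest on few counts, which limits their fold changes most. The further pathway genes were not refitted one by one under the alternatives.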
